A study of Takifugu obscurus and Periophthalmus magnuspinnatus and Gallus gallus with 6 samples.

Results

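The SOX genes encode transcription factors that share a DNA-binding HMG box, and they were followed here through the cell classes of the fugu and chicken spinal cord. Members were every row of the deposited gene tables whose gene name, written in capitals, began with SOX and a digit. This gave 20 of 21383 rows in fugu and 16 of 17007 rows in chicken. A gene name was present in 15198 fugu and 13067 chicken rows, so a SOX gene in an unnamed row would be missed. The fugu table holds 2 rows named for SOX10, written SOX10 (ENSTRUG00000033126) and sox10 (ENSTRUG00000008350), and these copies were kept apart throughout.

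SOX proteins bend DNA and act with partner factors, and they fall into groups by the sequence of the HMG box. In the spinal cord, SoxB1 members (SOX1, SOX2, SOX3 and the teleost sox19b) hold progenitors in their state, SoxB2 members (SOX14, SOX21) act against them, and SoxC members (SOX4, SOX11, SOX12) serve neuronal differentiation. SoxE members (SOX8, SOX9, SOX10) direct glial fate and myelination, SoxD members (SOX5, SOX6, SOX13) are known from mice to restrain SoxE targets in oligodendrocyte precursors, and SoxF members (SOX7, SOX17, SOX18) act in vessels and endoderm.

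Single-cell RNA-seq (10x Chromium, 3′ v3 chemistry) was performed on spinal cord with 2 libraries per species, each pooling tissue from several animals, after live cells were sorted by exclusion of propidium iodide. Fugu were juveniles about 1 month after hatching, labelled Takifugu obscurus and described in the methods as a cross of T. obscurus with T. rubripes, with reads mapped to T. rubripes. Chicken embryos (Gallus gallus) were at embryonic days 10 to 11. No group was treated or carried a transgene, only the rostral cord was sampled, and mudskipper libraries of the same series were not used here.

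After the UMI minimum of each library and doublet removal, 2556 and 2519 fugu cells and 7626 and 7743 chicken cells were kept, with median UMI counts of 5393.5 and 5460 in fugu and 12130 and 12434 in chicken. The fugu libraries shared 0 of the kept barcodes and the chicken libraries shared 17. Cells were clustered without any SOX row, and classes were named from marker lists that held no SOX gene, so a SOX level did not enter the class it was measured in, although the other genes of the same cells did. Clusters that reached no name are called by their leading genes. A fugu cluster of 143 and 94 cells carried the genes of the study's radial glia panel (sema5a, c1ql4b, PLXNB1). Panel genes were read first in naming, so the marker lists could not name this cluster. No fugu class was named from the oligodendrocyte precursor list. The cluster also held 7 of 11 oligodendrocyte precursor markers against 2 of 19 astrocyte markers. It is called the panel cluster here and given no cell type. The summed levels of these lists there were 2306 and 2284 CPM for oligodendrocyte precursors and 13704 and 13018 for astrocytes. The lists differ in genes and length, so the sums do not rank the 2 identities. The astrocyte list also holds fabp7a, whose level followed that of fugu SOX10 over the class sums (Pearson r = 0.962). Chicken cells led by PDGFRA are called OPC-like, for oligodendrocyte precursor. The chicken committed and mature classes were grouped as a later lineage with GPR17 or ENPP6 leading, and the paper names Enpp6 as marking newly formed oligodendrocytes. Mature oligodendrocyte-like is thus the name of a marker match, not of a finished stage. Astrocyte-like is likewise the name of a marker match. Levels are UMIs of a gene per 1000000 UMIs of a class (CPM), given for library 1 and then library 2. Fold changes come from edgeR's quasi-likelihood test on UMIs summed per class and library after TMM scaling, and may therefore differ from the ratio of CPM. A gene was called when its Benjamini-Hochberg adjusted p was under 0.05 and its absolute log2 fold change was over 1. Each class has 2 libraries. All classes of a species with at least 10 cells in each library entered a joint fit with a shared estimate of the spread. P-values therefore measure the spread between libraries over all these classes, not only over those compared. Library was not a term of the main fit.

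Of the 20 fugu members, 12 reached the minimum of 50 UMIs over all sums and were tested. The other 8 were nearly silent in these cells: sox14 and sox32 had 0 UMIs, sox1b 2, sox17 6, SOX18 7, sox7 27, SOX1 37 and SOX4 42. In chicken, 15 of 16 members were tested, and SOX30 was left out with 8 UMIs. The fugu pairs SOX9 and sox9b, and SOX10 and sox10, are named as duplicates of one gene each. Reads that fit both rows of a pair could be lost or split in the counting, so the separate levels of such rows are uncertain.

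**Figure D1:**
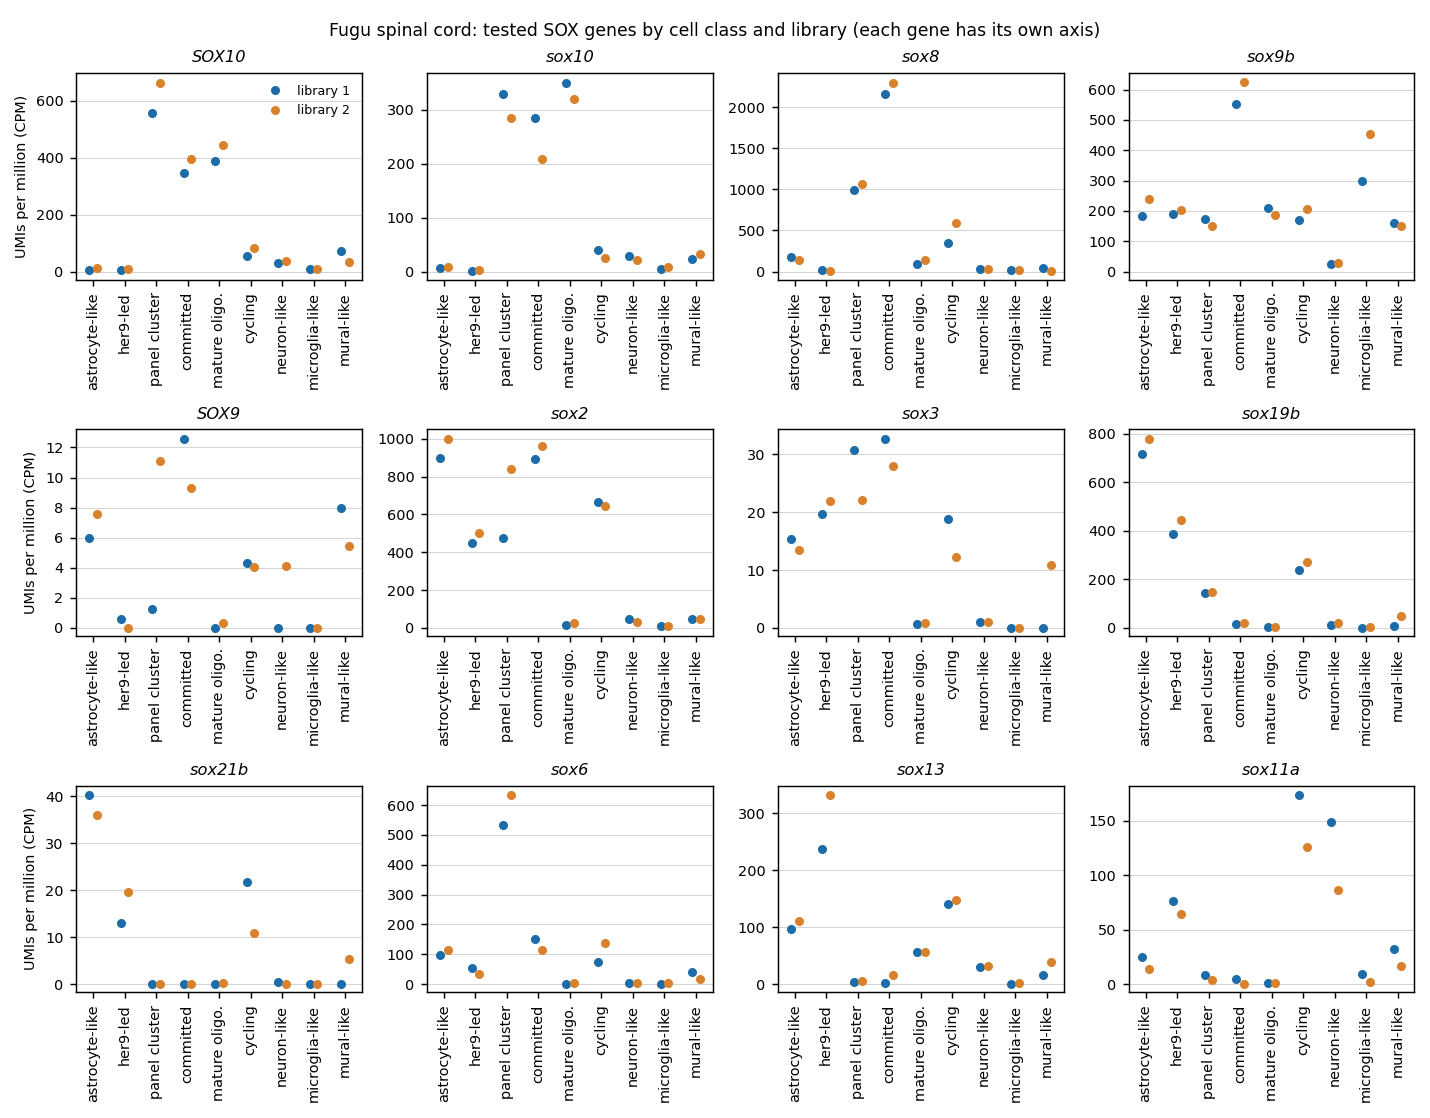
Level in CPM (linear vertical axes, a separate axis for each gene) of the 12 tested fugu SOX genes in 9 cell classes, with 1 point for each library. Both SOX10 copies sit high in the panel cluster, committed precursor-like and mature oligodendrocyte-like classes, while sox2 and sox19b are near 0 in the mature class.

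In fugu, both copies of the myelination regulator SOX10 were high in the oligodendrocyte lineage and near background in astrocyte-like cells. SOX10 reached 387 and 446 CPM in mature oligodendrocyte-like cells and 5.47 and 11.3 in astrocyte-like cells, and the libraries of the classes did not overlap. The difference was 56.2-fold (log2 5.81 ± 0.28 (SE), adjusted p = 2.2e-17, edgeR). The sox10 copy gave 350 and 319.5 CPM against 7.46 and 9.23, again without overlap, a 46.2-fold difference (log2 5.53 ± 0.25 (SE), adjusted p = 4.8e-18, edgeR). These were the 2 members of 12 called higher in the mature class, where 15.2% of all genes tested were called higher. Another 7 were lower, against 22.5% of all genes, and the members' median log2 fold change was -4.03 against 0.0225 over all genes.

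Both copies were detected in most mature oligodendrocyte-like cells. After thinning each cell to 3000 UMIs, SOX10 was seen in 67.1% and 70.7% and sox10 in 63.7% and 60.2% of these cells (unthinned 82.9% and 86.7% for SOX10 and 82.1% and 78.9% for sox10). In microglia-like cells, immune cells in which SOX10 has no known role, the thinned shares were 0% and 1.35% for SOX10 and 0% and 1.80% for sox10 (unthinned 3.80% and 3.15% for SOX10 and 1.27% and 3.15% for sox10), at median depths of 5021 and 5315 UMIs against 5081 and 5072 in mature cells. Barcodes of at most 100 UMIs, which hold free RNA, carried SOX10 at 133 and 163 CPM and sox10 at 111 and 120 CPM, above every class outside the panel cluster and the lineage but the erythroid-like cells of library 2.

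In mature oligodendrocyte-like cells and the panel cluster, the copies were present together about as often as their separate shares multiply to. In mature oligodendrocyte-like cells thinned to 3000 UMIs, 42.5% and 43.3% held UMIs of both, where the product of the separate shares was 42.8% and 42.6%, and 88.3% and 87.6% held either. In the panel cluster, 44.1% and 41.5% held both and the product was 46.4% and 41.3%. The balance of the copies differed by class: SOX10 took 52.5% and 58.2% of the UMIs of both copies in mature cells, 55.0% and 65.5% in committed precursor-like cells and 62.9% and 70.0% in the panel cluster. The libraries of mature cells and of the panel cluster did not overlap, those of committed cells overlapped with both, and the balance was not tested. Over the 22 sums of class and library the log levels of the copies had a Pearson r of 0.965, a description of sums that share libraries and depth.

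**Figure D2:**
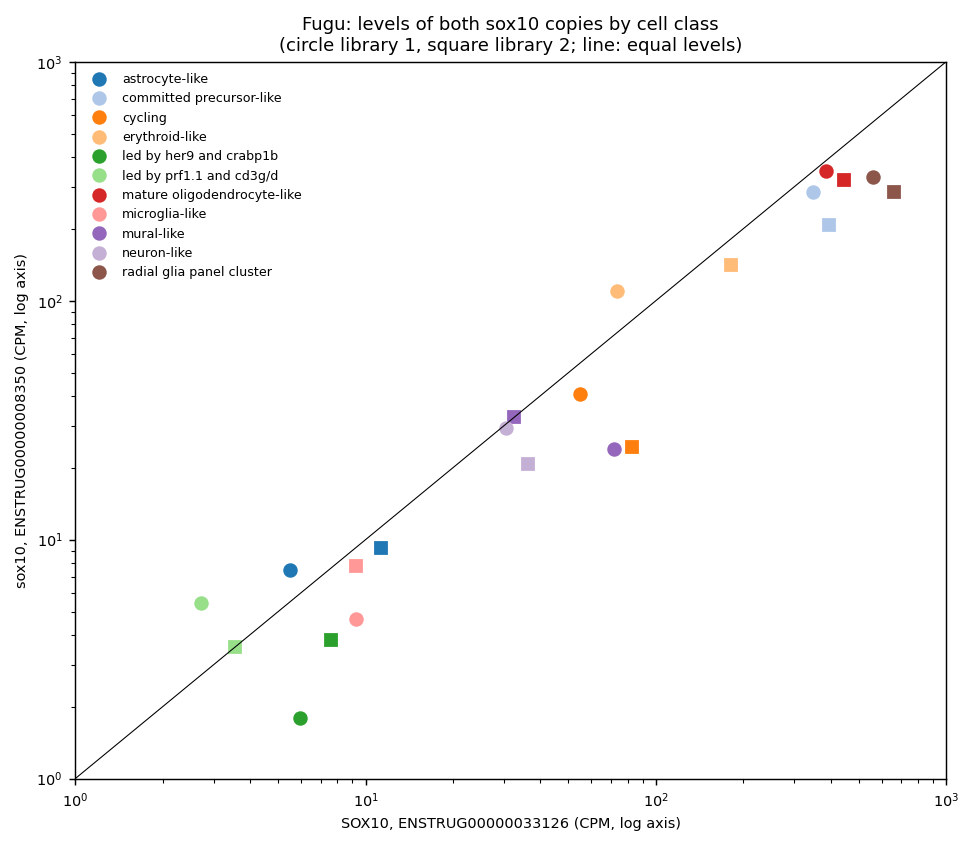
Levels of SOX10 (horizontal) and sox10 (vertical) in CPM on log axes for 11 fugu cell classes, with circles for library 1, squares for library 2 and a line where the copies are equal. Among the 3 classes at the upper right, the panel cluster lies farthest below the line within each library, at 558 against 329 CPM in library 1.

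Sox8 (ENSTRUG00000009225), the SoxE relative of SOX10 that overlaps with it in mouse oligodendrocytes, was highest in committed cells, while both copies stayed high in mature ones. Its level was 2162 and 2296 CPM in the gpr17-led committed precursor-like cells, 990.3 and 1069.9 in the panel cluster, and lower in astrocyte-like (173 and 146) and mature cells (91.9 and 140.3). The committed class stood above all others in both libraries, 17-fold over mature cells (log2 4.09 ± 0.24 (SE), adjusted p = 2.9e-14, edgeR). Mature and astrocyte-like cells were not called different for sox8 (log2 -0.23 ± 0.22 (SE), adjusted p = 0.428). SOX10 itself was at 347 and 394 CPM in committed cells, overlapping with the mature libraries (log2 -0.35 ± 0.21 (SE), adjusted p = 0.287), and sox10 was at 284 and 208 CPM, lower but under the fold threshold (log2 -0.62 ± 0.20 (SE), adjusted p = 0.0214). With DESeq2's median-ratio size factors the sox10 value was -0.41 (adjusted p = 0.150, edgeR).

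SOX9 is the factor that starts gliogenesis in mouse and chick and stays on in astrocytes. Its fugu copy sox9b (ENSTRUG00000009750) was broad: 184 and 238 CPM in astrocyte-like, 209 and 185 in mature, 551 and 624 in committed and 172 and 149.7 in panel cluster cells. Astrocyte-like and mature libraries overlapped (log2 0.13 ± 0.20 (SE), adjusted p = 0.624), and the sign turned under another scaling, DESeq2's median-ratio size factors, to -0.24. Committed cells were higher than mature ones (log2 1.40 ± 0.21 (SE), adjusted p = 5.8e-06, edgeR). Microglia-like cells carried sox9b at 300.1 and 453 CPM, the second highest class, with a UMI in 44.3% and 60.4% of thinned cells (unthinned 50.6% and 71.6%). Barcodes of at most 100 UMIs held sox9b at 153 and 215 CPM, below the microglia-like level of the same library, and neuron-like cells had a UMI in 7.94% and 5.71% of thinned cells (unthinned 10.9% and 10.5%, median depths 5118 and 5603 against 5021 and 5315 UMIs). The lymphocyte genes prf1.1 and cd3g/d led another immune cluster, where sox9b was at 5.43 and 7.09 CPM, and no test was run on this contrast. The other copy, SOX9 (ENSTRUG00000017157), had only 65 UMIs in all kept cells, with 5 and 3 in committed, 12 and 18 in astrocyte-like and 0 and 2 in mature cells. It was called higher in committed than in mature cells (adjusted p = 0.00118, edgeR) and lower in mature than in astrocyte-like cells (adjusted p = 7.3e-05).

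The tested SoxB1 progenitor genes were lower in mature oligodendrocyte-like cells than in astrocyte-like and committed cells. For sox19b, the committed level lay nearer to the mature than to the astrocyte-like one. Sox2 (ENSTRUG00000004861) was at 899 and 1000.2 CPM in astrocyte-like, 893 and 962 in committed and 15.9 and 24.1 in mature cells. Mature libraries were far under both other classes, 40.3-fold below astrocyte-like cells (log2 -5.33 ± 0.26 (SE), adjusted p = 1.8e-17, edgeR) and 40.9-fold below committed cells (adjusted p = 5.0e-16). Sox19b (ENSTRUG00000005238), a SoxB1 gene of teleosts, followed another order, at 717 and 778 CPM in astrocyte-like cells, 144 and 146 in the panel cluster, 15.1 and 18.6 in committed cells and 2.01 and 2.56 in mature cells. It was 271-fold lower in mature than in astrocyte-like cells (log2 -8.08 ± 0.32 (SE), adjusted p = 1.1e-18, edgeR). Barcodes of at most 100 UMIs held sox19b at 66.6 and 85.5 CPM, above the committed level of the same library. Sox3 (ENSTRUG00000001773), whose mouse counterpart also marks progenitors, was low everywhere, with its highest level of 32.7 and 27.9 CPM in committed cells and 0.573 and 0.800 in mature cells (log2 5.14 ± 0.57 (SE), adjusted p = 5.8e-08, edgeR). The SoxB2 gene sox21b (ENSTRUG00000005725), known from chick to oppose SoxB1 proteins, had 40.3 and 36.1 CPM in astrocyte-like cells and 0 and 1 UMIs in mature cells (adjusted p = 1.3e-11, edgeR).

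Sox6 (ENSTRUG00000017299), the SoxD gene that in mice holds back oligodendrocyte differentiation, was a gene of the panel cluster. Its level there was 534 and 634 CPM, against 151 and 115 in committed, 97.0 and 114 in astrocyte-like and 1.29 and 1.92 in mature cells, and the panel cluster libraries lay above all other classes. The panel cluster was 4.42-fold above astrocyte-like cells (log2 2.14 ± 0.25 (SE), adjusted p = 2.1e-08, edgeR), and committed cells were higher than mature ones (log2 6.14 ± 0.41 (SE), adjusted p = 1.3e-12). Sox13 (ENSTRUG00000000156), another SoxD gene, ran the other way. It was highest in the cluster led by her9 and crabp1b, which also holds the intermediate filament gene gfap among its leading genes, at 238 and 332 CPM. It was at 57.0 and 56.9 CPM in mature cells, 2.51 and 15.5 in committed cells and 3.68 and 5.54 in the panel cluster, and committed cells were lower than mature ones (log2 -2.94 ± 0.52 (SE), adjusted p = 6.1e-05, edgeR). Its 2 committed libraries lay far apart, and the value was -1.98 without the first and -4.69 without the second.

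Counted over the members, committed minus mature gave 7 genes higher (SOX9, sox9b, sox8, sox2, sox3, sox19b, sox6), sox13 lower and 4 not called, where 8.42% of all genes were called higher and 9.17% lower. The members' median log2 fold change was 2.02 against -0.242 over all genes. Committed precursor-like cells number 58 and 43, the smallest lineage class, and SOX9 lost its call without committed replicate 1 (adjusted p = 0.0553), while sox19b lost its call without committed replicate 2 (adjusted p = 0.0650) or with a doubled doublet rate (adjusted p = 0.0635).

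The panel cluster held the SOX10 copies at lineage levels together with SoxB1 genes. SOX10 was at 558 and 663 CPM there and in 76.2% and 80.9% of thinned cells (unthinned 86.7% and 88.3%), and sox10 was at 329 and 285 CPM. Against mature oligodendrocyte-like cells, SOX10 had a log2 fold change of -0.00 (adjusted p = 1.00, edgeR) although its CPM was higher in both libraries. With DESeq2's median-ratio size factors (RLE) the value was 0.49 (adjusted p = 0.0382), and the median of all genes in this comparison moved from -0.124 to 0.325 with the scaling. Sox2 was at 476 and 843 CPM, with library 1 far under library 2, not called against astrocyte-like cells (log2 -0.86 ± 0.21 (SE), adjusted p = 0.00161) and 22.3-fold above mature cells (adjusted p = 8.1e-16, edgeR).

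Against astrocyte-like cells the panel cluster had 4 members higher (SOX10, sox10, sox8, sox6) and 4 lower (sox19b, sox21b, sox13, sox11a), where 15.3% and 17.1% of all genes were called. Sox21b had 0 UMIs in the panel cluster and 81 and 86 in astrocyte-like cells, at least 17.3-fold lower when the panel cluster is set to 3 counts over the group. Sox19b was 6.45-fold lower (log2 -2.69 ± 0.24 (SE), adjusted p = 1.5e-10, edgeR). The call for sox11a, a SoxC gene, was not stable: it was at 8.59 and 3.70 CPM against 24.9 and 13.8, and the log2 fold change of -1.83 became 0.19 at a finer clustering and was not called without panel cluster replicate 2 (adjusted p = 0.102) or astrocyte-like replicate 1 (adjusted p = 0.0999), or with a UMI minimum 1.5 times as high (0.114). Against mature cells, 7 members were higher and sox13 was lower, where 20.3% and 17.3% of all genes were called, and sox6 had the largest difference (238-fold, adjusted p = 1.6e-17, edgeR). Of these, SOX9 lost its call without panel cluster replicate 2 (adjusted p = 0.476) and sox11a without panel cluster replicate 1 (adjusted p = 0.455).

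In fugu neuron-like cells the SoxC gene sox11a (ENSTRUG00000003243), whose relatives promote neuronal differentiation in chick, was higher than in astrocyte-like cells. It was at 149 and 86.0 CPM against 24.9 and 13.8 in astrocyte-like cells, without overlap (4.86-fold, log2 2.28 ± 0.30 (SE), adjusted p = 1.6e-07, edgeR). It was also high in cycling cells, at 174 and 126 CPM. The log2 value of sox11a was 4.30 at a clustering resolution of 1.0 and 1.20 without the scrt2-led cluster described next, called in both. The other 9 members were lower. The call of SOX9 among them held in 7 of 13 alternatives, and was lost without neuron-like replicate 1 (adjusted p = 0.361) or astrocyte-like replicate 1 (0.0701), with RLE (0.0582), with DESeq2 (0.263), with a doubled doublet rate (0.0519) and without the scrt2-led cluster (0.0977). Both SOX10 copies were called higher, at 30.4 and 36.3 CPM for SOX10 and 29.4 and 20.7 for sox10. Those calls rest on 1 of the 3 neuron-like clusters, led by scrt2 (175 cells), with SOX10 at 89.7 and 130.5 CPM and a summed level of mature oligodendrocyte markers of 31595 and 34386 CPM. The cluster with gad1b, the GABA enzyme gene, had SOX10 at 8.65 and 9.25 CPM beside a marker sum of 1408 and 1916, and the cluster with the glutamate transporter gene SLC17A6 had 14.9 and 14 CPM beside 4108 and 2865. Without the scrt2-led cluster, a setting added after the levels were seen, neither copy was called: SOX10 was at log2 0.18 (adjusted p = 0.723) and sox10 at -0.33 (adjusted p = 0.485, edgeR). The part of oligodendrocyte transcripts in these values was not tested. Of all genes, 23.3% were higher and 19.8% lower in this comparison.

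Other fugu classes with lineage transcripts showed the SOX10 copies too. The 11 and 10 erythroid-like cells had SOX10 at 73.3 and 182 CPM, beside a mature oligodendrocyte marker sum of 28811 and 30252 CPM. Mural-like cells had 71.9 and 32.5 CPM beside 21675 and 10782. In mature oligodendrocyte-like cells the same sum was 128213 and 129686, and whether these levels come from other cells was not tested.

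**Figure D3:**
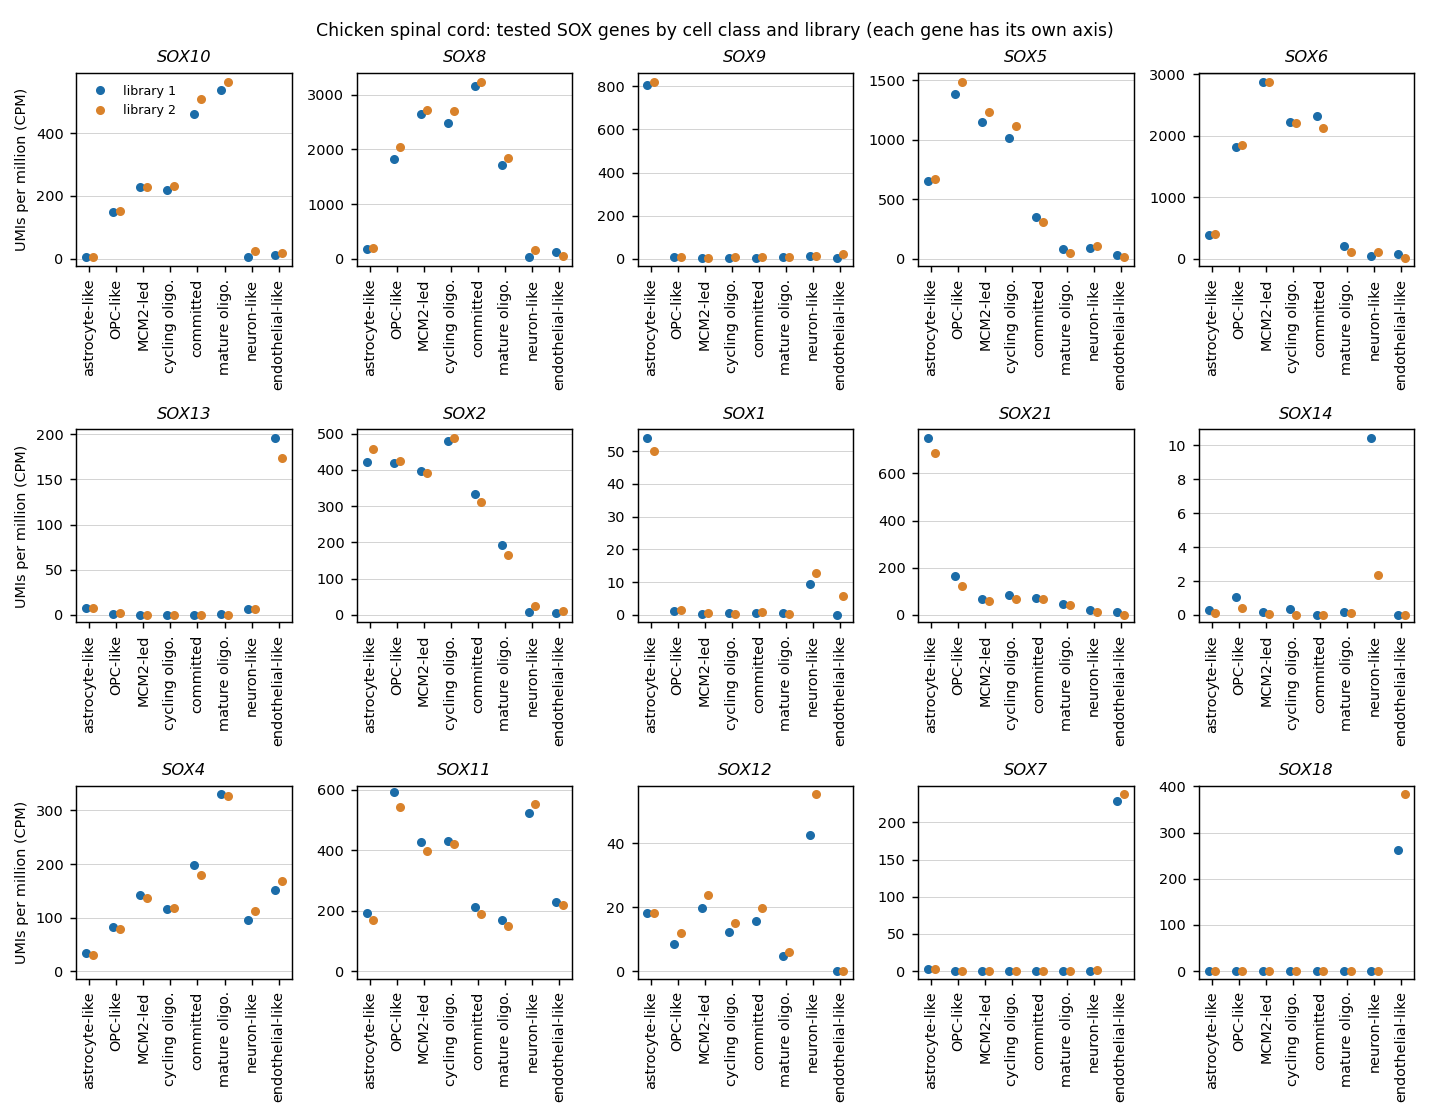
Level in CPM (linear vertical axes, a separate axis for each gene) of the 15 tested chicken SOX genes in 8 cell classes, with 1 point for each library. SOX9 and SOX10 occupy different classes, SOX5 and SOX6 fall to low levels in the mature class where SOX4 is highest, and SOX7 and SOX18 stand out in endothelial-like cells.

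In the chicken embryo, SOX9 and SOX10 marked astrocyte-like cells and the oligodendrocyte lineage. SOX9 (ENSGALG00010029771) was at 807 and 819 CPM in astrocyte-like cells and 6.76 and 6.42 in OPC-like cells, which are led by PDGFRA, the growth factor receptor of oligodendrocyte precursors. OPC-like libraries lay far below, a 132-fold difference (log2 -7.05 ± 0.20 (SE), adjusted p = 8.1e-15, edgeR). SOX9 stayed between 4.85 and 8.22 CPM in every later or cycling class of the lineage, and was at 512 and 402 CPM in the cluster led by LECT1 and CRABP1. In cells thinned to 5000 UMIs, 93.0% and 94.8% of astrocyte-like and 3.38% and 4.16% of OPC-like cells held a SOX9 UMI (unthinned 96.8% and 98.2% against 6.60% and 7.09%, median depths 9130 and 9197 against 10941 and 11800 UMIs).

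SOX10 (ENSGALG00010010407) was at 4.40 and 6.5 CPM in astrocyte-like, 150.3 and 154 in OPC-like, 460.2 and 507 in committed precursor-like and 536 and 562 in mature oligodendrocyte-like cells. The 4 classes did not overlap in any library. OPC-like cells were 25.7-fold above astrocyte-like cells (log2 4.68 ± 0.41 (SE), adjusted p = 1.3e-08, edgeR). With no doublet removal that log2 value was 1.72, still called. Committed cells were a further 3.81-fold higher (log2 1.93 ± 0.34 (SE), adjusted p = 8.5e-05), and the step from committed to mature cells did not pass (log2 0.33 ± 0.32 (SE), adjusted p = 0.466). Thinned shares of cells with SOX10 were 53.0% and 51.3% in OPC-like and 90.9% and 93.5% in mature cells, against 2.34% and 2.93% in astrocyte-like cells (unthinned 79.4% and 81.4% in OPC-like, 99.2% and 99.5% in mature and 4.0% and 5.90% in astrocyte-like cells).

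SOX8 (ENSGALG00010017127) had the most UMIs of any chicken member (309623) and was on throughout the lineage. It was at 1829 and 2048 CPM in OPC-like, 3166 and 3233 in committed and 1711 and 1837 in mature cells, against 171 and 189 in astrocyte-like cells. OPC-like cells were 9.95-fold above astrocyte-like cells (adjusted p = 4.0e-06, edgeR), with the log2 value moving from 3.32 to 2.02 with no doublet removal. Committed libraries were above both neighbours, but neither step was called (log2 0.98 ± 0.41 (SE), adjusted p = 0.0525, and log2 -0.71 ± 0.41 (SE), adjusted p = 0.191).

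SOX5 and SOX6, the SoxD pair that delays terminal differentiation in mice, were both low in mature cells, and SOX5 was already lower in committed cells. SOX5 (ENSGALG00010014120) was at 1379 and 1484 CPM in OPC-like, 348 and 311 in committed and 78.8 and 44.6 in mature cells. Each step was a fall without overlap, 3.63-fold to committed cells (log2 -1.86 ± 0.21 (SE), adjusted p = 3.2e-07, edgeR) and 4.85-fold from there to mature cells (log2 -2.28 ± 0.21 (SE), adjusted p = 5.9e-08). SOX6 (ENSGALG00010023131) was at 1823 and 1847 CPM in OPC-like, 2315 and 2119 in committed and 214 and 112 in mature cells. It was not called between OPC-like and committed cells (log2 0.53 ± 0.31 (SE), adjusted p = 0.168) and was 12.4-fold lower in mature cells (log2 -3.63 ± 0.35 (SE), adjusted p = 7.8e-08, edgeR). The thinned share of cells with a SOX6 UMI was 99.8% and 100% in OPC-like and 36.0% and 22.4% in mature cells (unthinned 100% and 100% against 46.1% and 34.2%, median depths 10941 and 11800 against 12426 and 13063 UMIs). With no doublet removal the mature minus committed values were -1.48 for SOX5 and -2.93 for SOX6, both called. Whether the falls of SOX5 and SOX6 differ from each other was not tested, and both mature minus committed and committed minus OPC-like comparisons were added after the levels were seen. Against astrocyte-like cells, SOX6 was 4.26-fold higher in OPC-like cells (adjusted p = 2.4e-05, edgeR), while SOX5 lay at the threshold with a log2 value of 1.00 ± 0.20 (SE, adjusted p = 0.000400) and was not called.

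The SoxC genes SOX4 and SOX11 changed in opposite directions along the lineage. SOX4 (ENSGALG00010008146) was at 82.7 and 78.7 CPM in OPC-like, 198 and 180.3 in committed and 331 and 328 in mature cells, with no overlap between classes. It was 2.80-fold higher in committed than OPC-like cells (log2 1.49 ± 0.11 (SE), adjusted p = 1.1e-09, edgeR), and the next step was under the fold threshold (log2 0.95 ± 0.10 (SE), adjusted p = 4.7e-07). SOX11 (ENSGALG00010003543) was at 592 and 542 CPM in OPC-like, 213 and 191 in committed and 169 and 149.5 in mature cells, 2.35-fold lower in committed than OPC-like cells (log2 -1.23 ± 0.11 (SE), adjusted p = 2.2e-08, edgeR). SOX12 (ENSGALG00010016478), the third SoxC gene, was low, at 8.61 and 11.8 CPM in OPC-like, 15.8 and 19.8 in committed and 4.72 and 6.04 in mature cells. Its rise to committed cells (log2 1.08) was called, but was under the fold threshold with RLE size factors (0.97), DESeq2 (0.97), SOX rows in the clustering (0.99), without OPC-like replicate 1 (0.87) and without committed replicate 2 (0.91). Its fall from committed to mature cells was called (log2 -1.56 ± 0.19 (SE), adjusted p = 3.2e-06, edgeR).

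Among the SoxB genes, SOX2 was at like levels in astrocyte-like and OPC-like cells, and SOX21 and SOX1 were higher in astrocyte-like than in OPC-like cells. SOX2 (ENSGALG00010016609) was at 420.5 and 456 CPM in astrocyte-like, 419.8 and 424 in OPC-like and 194 and 166 in mature cells, with the first 2 classes overlapping (log2 -0.17 ± 0.22 (SE), adjusted p = 0.574). SOX21 (ENSGALG00010006075) was at 748 and 685 CPM against 163 and 121, 5.42-fold lower in OPC-like cells (log2 -2.44 ± 0.22 (SE), adjusted p = 1.7e-08, edgeR). SOX1 (ENSGALG00010015997) was at 54.0 and 50.2 CPM against 1.08 and 1.45, 44.8-fold lower (adjusted p = 2.1e-11, edgeR). Both genes were highest in a separate class of 257 and 354 cycling cells with astrocyte markers, not drawn in the figure. SOX21 was at 864 and 756 CPM and SOX1 at 64.2 and 55.9 CPM there. The astrocyte-like class joins 2 clusters that differed in SOX levels. SOX21 was at 861 and 795 CPM in the cluster led by RXFP1 and SMOC1 against 578 and 548 in that led by AQP1 and POSTN, SOX1 at 67.0 and 62.7 against 34.3 and 34.5 and SOX12 at 6.29 and 7.37 against 36.5 and 31.4. SOX21 and SOX1 were higher in the former and SOX12 in the latter in both libraries, a description with no test.

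**Figure D4:**
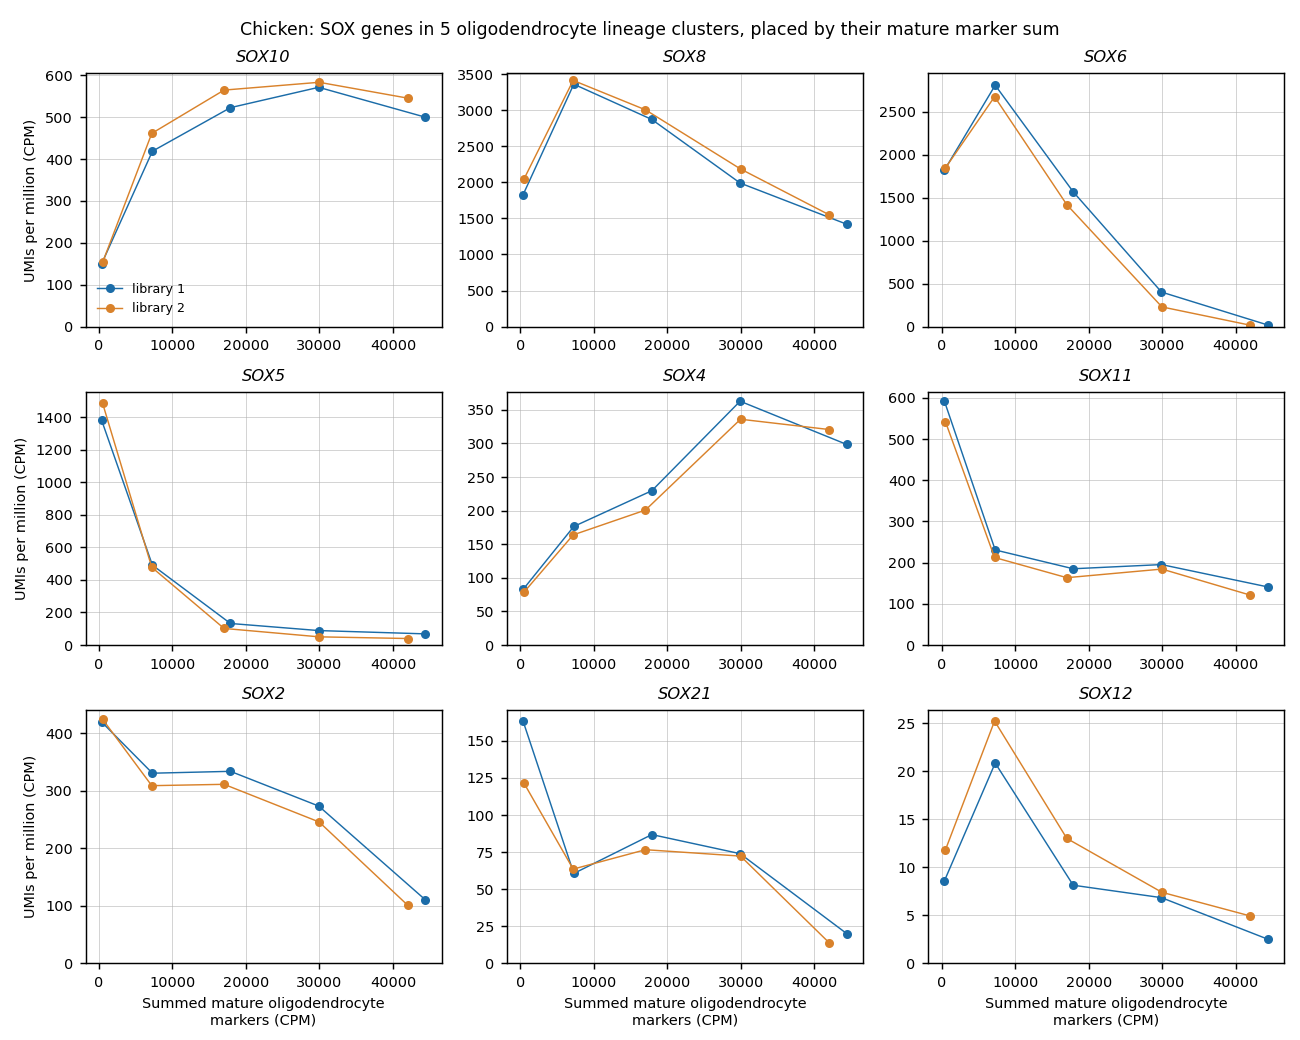
Level in CPM of 9 chicken SOX genes (vertical) in 5 lineage clusters placed by the summed CPM of mature oligodendrocyte markers (horizontal, linear axes), with 1 line for each library. SOX5 is lower in each later cluster, SOX6 and SOX8 peak in the GPR17-led cluster before falling, and SOX10 and SOX4 are highest in the fourth cluster.

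Ordered by the summed level of mature oligodendrocyte markers, a list without SOX genes, the 5 lineage clusters outside the cycle showed these orders at finer grain. The sum was 368 and 498 CPM in the OPC-like cluster, 7268 and 7183 in the cluster with GPR17, a receptor of committed precursors, 17886 and 17018 in the cluster led by CMTM7, 29896 and 29954 in that led by FABP9 and 44416 and 41988 in that led by PLLP, a myelin protein gene. SOX6 was at 1823 and 1847 CPM in the OPC-like cluster, 2810 and 2676 with GPR17, 1569 and 1419 with CMTM7, 402 and 229 with FABP9 and 17 and 15.8 with PLLP. Its highest level was in the GPR17 cluster and its lowest in the PLLP-led cluster in both libraries. SOX5 was at 1379 and 1484 CPM in the OPC-like cluster and 491 and 477 with GPR17, then 132 and 102 with CMTM7, 88.8 and 50.3 with FABP9 and 68.5 and 40.0 with PLLP, lower in each later cluster in both libraries. SOX10 was at 419 and 461 CPM with GPR17, 523 and 565 with CMTM7, 571 and 583 with FABP9 and 499.9 and 545 with PLLP. The libraries of the CMTM7-led and PLLP-led clusters overlapped. SOX8 ran from 1829 and 2048 to 3361 and 3413 CPM in the GPR17 cluster and down to 1419 and 1552 in the last. SOX2 stayed between 246 and 424 CPM over the first 4 clusters and was at 111 and 101 CPM in the PLLP-led cluster. SOX21 fell likewise between the fourth and the fifth, from 74.0 and 72.3 to 20.1 and 14.1 CPM. These orders are descriptions of clusters from the same 2 libraries and were not tested.

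Of the 15 tested members, OPC-like minus astrocyte-like cells gave 5 higher (SOX10, SOX8, SOX6, SOX4, SOX11) and 5 lower (SOX9, SOX21, SOX1, SOX7, SOX13), where 12.2% and 14.2% of all genes were called. OPC-like cells held few UMIs of 3 of the lower ones: 7 and 7 of SOX1, 1 and 1 of SOX7 and 8 and 10 of SOX13. The later lineage clusters, compared below, held 0 to 5 UMIs of SOX13 per cluster and library. SOX4, at log2 1.18, was under the fold threshold with no doublet removal (0.55). Committed minus OPC-like cells gave 3 higher (SOX10, SOX4, SOX12) and 4 lower (SOX5, SOX11, SOX13, SOX14) against 7.49% and 20.7% of all genes. SOX14 (ENSGALG00010026014) was among the lower ones on 7 and 2 UMIs in OPC-like cells and 0 in committed cells, at least 7.89-fold lower with committed cells at 3 counts over the group. It lost the call without OPC-like replicate 1 (adjusted p = 0.165), committed replicate 1 (0.0604) or committed replicate 2 (0.0714). The members' median in this comparison, 0.00, is that of SOX18, which had no UMI in either class. Mature minus committed cells gave 3 members called of 15, all lower (SOX5, SOX6, SOX12), where 8.99% of all genes were called higher and 10.0% lower. With the library as a block SOX14 was called as well (adjusted p = 0.0475), on 2 and 2 UMIs in mature cells against 0 in committed ones. The later lineage as a whole (committed and mature classes together) minus OPC-like cells had SOX10 and SOX4 higher and 6 lower (SOX5, SOX6, SOX11, SOX13, SOX14, SOX21), against 9.43% and 23.2% of all genes, and here the SOX6 sums of the groups overlapped. SOX21 fell under the fold threshold without OPC-like replicate 1 (log2 -0.78) or mature replicate 2 (-0.98), with a doubled doublet rate (-0.98), no doublet removal (-0.77), SOX rows in the clustering (-0.95) or a resolution of 1.0 (-0.82). SOX6, at log2 -1.28, was under it with no doublet removal (-0.74), and SOX14 lost its call without OPC-like replicate 1 (adjusted p = 0.251) or committed replicate 2 (adjusted p = 0.0506).

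**Figure D5:**
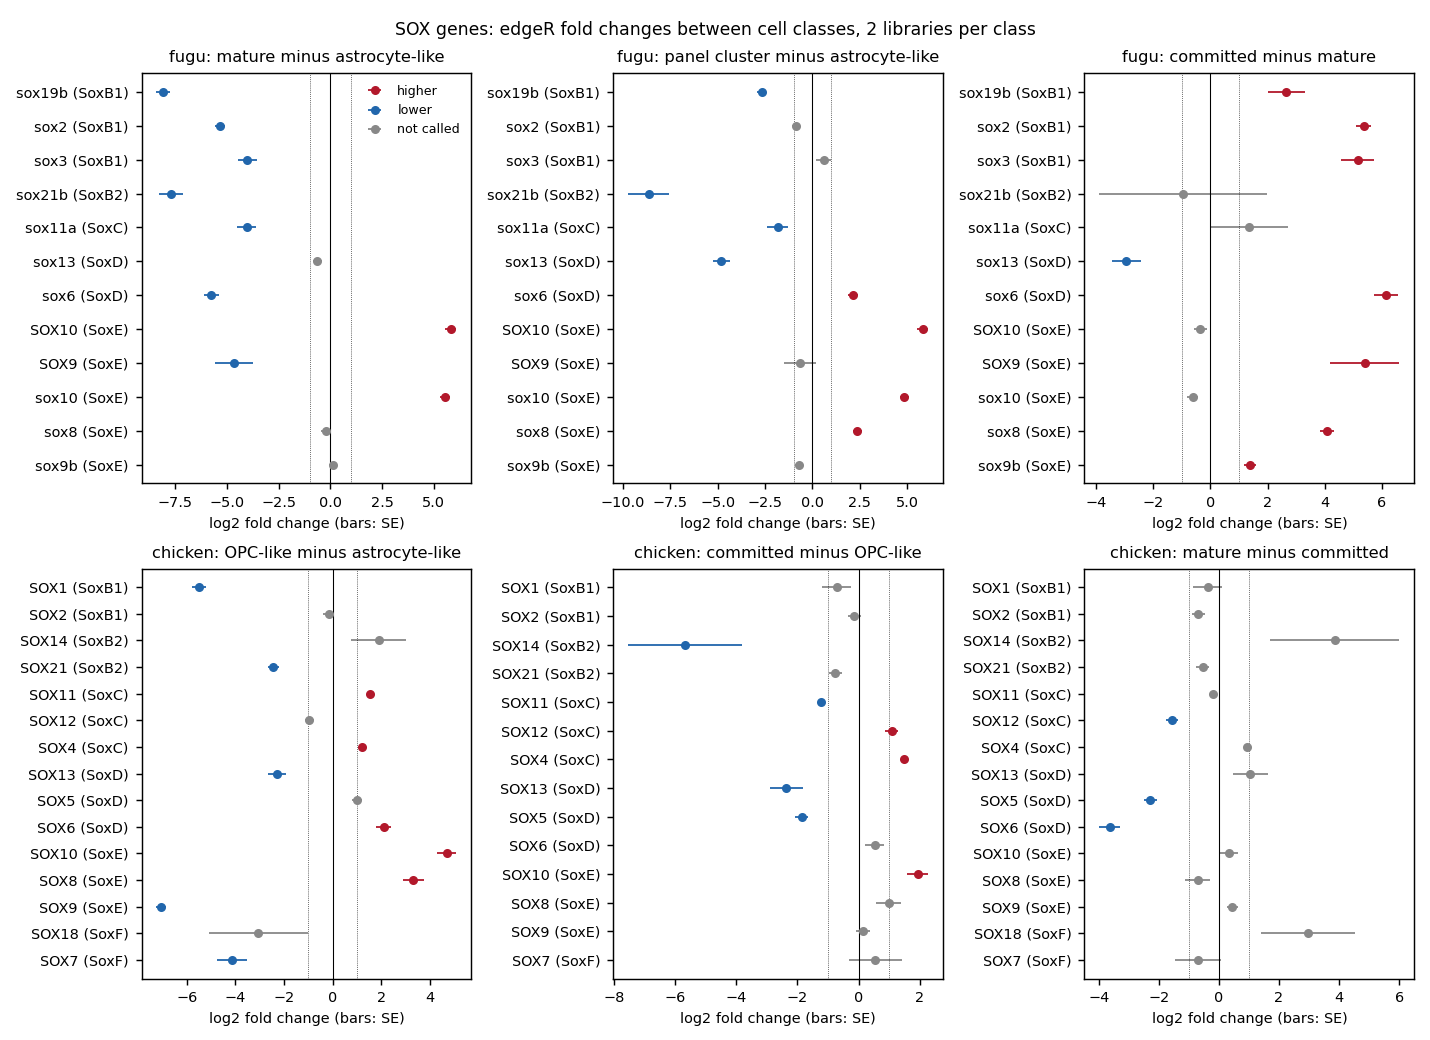
Log2 fold changes (horizontal, bars are standard errors of the edgeR fit) of the tested SOX genes in 3 fugu comparisons (top) and 3 chicken comparisons (bottom), with genes ordered by SOX group, dotted lines at a log2 value of 1 in each direction, and SOX18 left out where it had no UMI. Red points were called higher and blue points lower, and both fugu SOX10 copies stand to the right in the first 2 panels. Points that stand against 0 UMIs in a class depend on the prior count of the fit. Among them are sox21b in the second panel, SOX18 in the fourth and sixth and SOX14 in the fifth and sixth.

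Cycling cells of the lineage were compared with OPC-like cells. Cells led by TOP2A, a gene of dividing cells, had SOX10 at 220.1 and 233 CPM, SOX6 at 2229 and 2211, SOX5 at 1012 and 1112 and SOX2 at 479 and 487. Of 15 members 2 were called, both lower, a share of 13.3% that lies near the background, where 5.78% of all genes were called higher and 15.9% lower. At the study's fold minimum of 0.25 the count was 6 of 15, where 6283 of the 13410 genes tested were called. SOX1 was at 0.581 and 0.387 CPM against 1.08 and 1.45 in OPC-like cells and SOX13 at 0.332 and 0.387 against 1.23 and 2.07, levels of few UMIs. SOX1 lost its call with the library as a block (adjusted p = 0.0538) and without OPC-like replicate 1 (0.0718), OPC-like replicate 2 (0.162) or cycling replicate 2 (0.147), with a doubled doublet rate (0.263) and with no doublet removal (0.0687). With the block SOX14 was called instead (log2 -2.19, adjusted p = 0.0444). SOX4 had a log2 value of 0.44 (adjusted p = 0.00266, edgeR), under the fold threshold. The cluster led by MCM2 and CDCA7, replication and cycle genes, had the highest SOX6 level of any class, 2871 and 2866 CPM, and SOX10 at 229 and 229.7 CPM.

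The SoxC genes were higher in chicken neuron-like than in astrocyte-like cells, and 1 of them, SOX12, had its highest level of all classes there. SOX11 was at 524 and 553 CPM against 192 and 169 in astrocyte-like cells (log2 1.52 ± 0.11 (SE)), SOX4 at 95.0 and 111 against 34.9 and 30.9 (log2 1.59 ± 0.11 (SE)) and SOX12 at 42.6 and 55.2 against 18.3 and 18 (log2 1.37 ± 0.17 (SE)). All 3 were higher without overlap, with adjusted p of 5.9e-10, 1.8e-10 and 8.7e-07 (edgeR). SOX4 was under the fold threshold with no doublet removal (0.97). OPC-like cells held SOX11 at 592 and 542 CPM, overlapping with neuron-like cells, and mature oligodendrocyte-like cells held SOX4 at 331 and 328. SOX4 differed between neuron clusters, from 72.4 and 86.8 CPM in the cluster with LMX1B and DRGX, genes of dorsal horn neurons, to 299 and 309 CPM in the cluster with EBF3 and NEUROD6. SOX14, expressed in ventral interneurons of the chick cord, was at 10.4 and 2.37 CPM against 0.278 and 0.0999 (adjusted p = 6.9e-05, edgeR), with library 1 above library 2 and no overlap with astrocyte-like cells. Of the 15 members, 6 were higher and 7 lower, where 22.4% and 18.2% of all genes were called. SOX9 had the largest decrease, at 13 and 12.9 CPM in neuron-like cells (log2 -6.03 ± 0.17 (SE), adjusted p = 5.1e-15, edgeR), and SOX21 and SOX2 followed with log2 values of -5.35 and -4.83. These values moved with the doublet setting, to -5.23 for SOX9, -4.66 for SOX21 and -3.76 for SOX2 with no doublet removal and to -6.45 for SOX2 with a doubled rate, all still called. SOX8 was at 39.9 and 156 CPM, not called without the library block (log2 -0.95 ± 0.41 (SE), adjusted p = 0.0491) and called lower with it (log2 -1.06, adjusted p = 0.0101).

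SOX10 was also called higher in chicken neuron-like cells, at 6.72 and 25.1 CPM against 4.40 and 6.5 (log2 1.44 ± 0.40 (SE), adjusted p = 0.00388, edgeR), and library 2 carried most of it. The summed mature oligodendrocyte markers of the neuron-like class were 274 and 933 CPM in the same order, and barcodes of at most 100 UMIs held SOX10 at 174 and 205 CPM. Without neuron-like replicate 2 the log2 value was 0.26 (adjusted p = 0.463), with a doubled doublet rate 0.19 (adjusted p = 0.539) and with no doublet removal -0.46 (adjusted p = 0.165). The part of free or neighbouring RNA in this value was not tested.

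A cluster of 40 and 27 neuron-like cells with PKD2L1, the channel gene of neurons that contact the cerebrospinal fluid, had a SOX profile unlike the other neurons, chosen here after its values were seen. SOX1 was at 259 and 267 CPM there, against 0.509 to 6.86 CPM in the other 3 neuron clusters and 54.0 and 50.2 in astrocyte-like cells. SOX13 was at 174 and 116 CPM and SOX21 at 125 and 148, and SOX11 was lower than in the other neuron clusters, at 222 and 186. Its mature oligodendrocyte marker sum was 629 and 4389 CPM, with SOX10 at 5.95 and 71.9 CPM, so library 2 stood apart in both.

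The SoxF genes were read in the 26 and 24 endothelial-like cells led by VWF. SOX7 (ENSGALG00010011166) was at 229 and 238 CPM, SOX18 (ENSGALG00010022524) at 263 and 382 and the SoxD gene SOX13 (ENSGALG00010025738) at 196 and 174, on 30 to 66 UMIs a library. All other classes were at or below 14.3 CPM for each of the 3 genes. Within the neuron-like class, though, the small PKD2L1 cluster held SOX13 near the endothelial-like level, as given above. Thinned cells held a UMI of SOX7 in 76.9% and 70.8% and of SOX18 in 65.4% and 91.7% (unthinned 76.9% and 75.0% for SOX7 and 73.1% and 91.7% for SOX18), against 1.19% and 1.28% and 0.156% and 0.0472% of astrocyte-like cells. SOX18 was called higher in neuron-like than in astrocyte-like cells on 0.571 and 0.607 CPM against 0.167 and 0.050 (adjusted p = 0.0145, edgeR), and lost the call without neuron-like replicate 1 (0.0529) or astrocyte-like replicate 2 (0.118). No SoxF member passed the UMI minimum in fugu, where no endothelial-like class was named.

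The partner list held known partners or co-regulators of SOX proteins in neural cells, with 20 rows in fugu and 14 in chicken, of which 16 and 13 were tested. OLIG1, OLIG2, NKX2-2, TCF7L2 and MYRF also stand in the lists that named the classes, so their direction is not independent of the classes. MYRF is the myelin regulator that SOX10 activates in mice. In fugu mature minus astrocyte-like cells, 7 partners were higher and 4 lower, where 15.2% and 22.5% of all genes were called. The largest differences were those of the astrocyte and progenitor gene pax6b (log2 -7.75), MYRF (6.26), POU3F4 (-5.68) and OLIG2 (5.59). In the panel cluster against astrocyte-like cells 6 were higher and 3 lower (15.3% and 17.1% of all genes), and MYRF was not called (log2 0.11). The largest were pax6b, with 0 UMIs in the panel cluster and 428 in astrocyte-like cells, at least 43.4-fold lower, olig1, with 139 against 0, at least 149.9-fold higher, both with the class at 0 set to 3 counts over the group, then znf488 on 52 UMIs against 1 and OLIG2 (log2 5.20). In committed minus mature fugu cells 5 were higher and 2 lower (8.42% and 9.17% of all genes). The largest were znf488, on 6 UMIs against 3 in the far larger mature class, and tcf7l2, a mediator of Wnt signalling, at log2 4.23. Panel cluster minus mature cells gave 4 higher and 7 lower (20.3% and 17.3% of all genes). The largest were olig1 on 139 UMIs against 1 and znf488 on 52 against 3, both higher, and MYRF (log2 -6.14). Neuron-like minus astrocyte-like cells gave 2 higher and 7 lower (23.3% and 19.8% of all genes).

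In chicken OPC-like minus astrocyte-like cells, 5 partners were higher and 2 lower, where 12.2% and 14.2% of all genes were called. The largest were PAX6 at -5.59, NKX2-2 at 3.95, OLIG2 at 3.59 and ZEB2 at 1.69 on the log2 scale. In committed minus OPC-like cells 4 were higher and 6 lower (7.49% and 20.7% of all genes), with MYRF at 4.47, TCF7L2 at 3.37, POU3F4 at -2.16 and the gliogenic factor NFIA at -2.15. In mature minus committed cells 1 was higher (EGR2, 3.70) and 3 lower, with NKX2-2 at -3.62 (8.99% and 10.0% of all genes). Later lineage minus OPC-like cells gave 4 higher and 6 lower (9.43% and 23.2% of all genes). Cycling minus OPC-like cells gave 1 called of 13 (MYRF, higher at 1.88), where 5.78% of all genes were higher and 15.9% lower. Neuron-like minus astrocyte-like cells gave 2 higher and 7 lower (22.4% and 18.2% of all genes).

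By the correlation of log2(CPM + 1) over 22 sums, the genes outside the family most like fugu SOX10 were WASF1 (r = 0.964), fabp7a (0.962), nkx2.2a (0.944), qkia (0.936) and aatkb (0.929), and those most like sox10 were WASF1 (0.948), gpr37a (0.946), ENSTRUG00000024103 (0.943), dbndd1 (0.939) and fabp7a (0.930). The copies thus shared WASF1 and fabp7a among their first 5. Over 24 chicken sums the genes most like SOX10 were UGT8 (0.974), FAM177A1 (0.957), TSPAN2 (0.951), TNR (0.941) and DLK2 (0.927). Of these genes, fabp7a, nkx2.2a, UGT8 and TNR also stand in the lists that named the classes, so their likeness is not independent of the classes. Sums of a library share depth and animals, so these values describe the libraries only.

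The species are set side by side here, with stage, species and depth all different and no test between them. The fugu copy written SOX10 was at 347 and 394 CPM in committed and 387 and 446 in mature cells. Chicken SOX10 was at 460.2 and 507 and then 536 and 562 CPM. The other fugu copy, sox10, is not in these values and was at 350 and 319.5 CPM in mature cells. A single fugu copy therefore does not rank the species against the chicken gene. SOX8 was at 2162 and 2296 CPM in committed and 91.9 and 140.3 in mature cells of fugu, and at 3166 and 3233 and then 1711 and 1837 in chicken. SOX2 was at 15.9 and 24.1 CPM in fugu mature cells and 194 and 166 in chicken mature cells, where the PLLP-led cluster alone had 111 and 101. For the SOX9 genes, mature cells had sox9b at 209 and 185 CPM in fugu and SOX9 at 6.70 and 8.22 in chicken. The mature classes of the species need not be at the same stage. Summed mature markers were 29896 and 29954 CPM in the FABP9-led and 44416 and 41988 in the PLLP-led chicken cluster. Both lie below the sum of fugu mature cells given above, each over the list rows of its own species.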

How the data were processed

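The authors deposited raw UMI counts per gene and barcode for 2 fugu and 2 chicken libraries, made with Cell Ranger 7.2.0 per the file headers, on custom references of T. rubripes and Gallus gallus with Ensembl annotation, and holding all barcodes before cell calling. Barcodes over 3000 (fugu), 5000 (chicken library 1) or 5500 UMIs (chicken library 2) were kept, which are the study's UMI minimums. The study also removed empty droplets by a statistical test and found doublets with another tool, so its cells were not the same set. Doublets were scored with Scrublet (scanpy 1.11.5) and the highest 0.8% per 1000 barcodes were removed. All barcodes together held 25763932 and 25721131 UMIs in fugu and 129947198 and 131974386 in chicken, of which the kept cells held 62.3%, 62.4%, 86.0% and 87.4%.

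Cells were clustered with Seurat 5.3.0 on 2000 variable features without SOX rows, 10 principal components and a resolution of 0.5. A name needed at least 3 markers of its list and 25% of the list. The panel cluster was named from its panel genes before the other lists were read. UMIs were summed per class and library (at least 10 cells), and genes with at least 50 UMIs over all sums were tested with edgeR 4.0.16 (quasi-likelihood, TMM, R 4.3.3), 13355 genes in fugu and 13410 in chicken, with Benjamini-Hochberg adjustment over all of them. SE is the absolute log2 fold change divided by the square root of F. Later lineage sums entered as separate committed and mature sums. Shares of cells were compared after thinning to 3000 or 5000 UMIs per cell. The procedure was tested on simulated data. Those counts were drawn independently for each sum and most genes did not differ between classes, unlike in these libraries, so the run gives no error rate for them.

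Sums of 1 library stem from 1 pool of animals, so the library number pairs them. The deviations of same-library sums had correlations of 0.00133 to 0.352 over 55 class pairs in fugu and -0.00762 to 0.490 over 66 in chicken. Alternatives were RLE size factors, DESeq2 1.42.0, no filter on low counts, a library block, other UMI minima, doublet rates, clustering settings and the sum of each class in each library left out. Every row with a SOX name was accounted for. Partner genes named were at most 4 per comparison with the largest called differences, with MYRF added once where it was not called, and the 5 genes most like each SOX10 row were named. The members, gene lists and tests were chosen with earlier results of these data known.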

Additional observations from a re-analysis of the deposited data

Results flagged for a closer look

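Between committed precursor-like and mature oligodendrocyte-like cells, the fitted differences of the SOX9 genes had opposite signs in fugu and chicken, and the chicken one was not called. Fugu SOX9 was higher in committed cells (log2 5.40, adjusted p = 0.00118, edgeR), on 5 and 3 UMIs in committed and 0 and 2 in mature cells. Fugu sox9b was higher as well (log2 1.40, adjusted p = 5.8e-06, edgeR). Chicken SOX9 had a log2 value of -0.45 for committed minus mature cells, which was not called (adjusted p = 0.0681, edgeR). Chicken SOX9 was at 5.30 and 6.84 CPM in committed and 6.70 and 8.22 in mature cells, under the 144 and 181 CPM of barcodes of at most 100 UMIs. Within each species both libraries had the same sign, and the difference between species was not tested.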

How the results depend on the processing

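Over settings other than leaving out the sum of 1 class in 1 library, 866 values of called members kept their direction and call, 21 lost the call and 3 reversed. These settings include the study's fold minimum of 0.25 on the same fit, where a called member could not lose its call. The 866 therefore hold values that were fixed in advance. The reversals were sox11a in the panel cluster minus astrocyte-like cells at a clustering resolution of 1.0 (log2 0.19, adjusted p = 0.883), fugu sox10 in neuron-like minus astrocyte-like cells without the scrt2-led cluster (-0.33) and chicken SOX10 in neuron-like minus astrocyte-like cells with no doublet removal (-0.46). The cause was not tested. The count of members called in chicken cycling minus OPC-like cells, 2, was 1 with a doubled doublet rate, 1 with no doublet removal and 6 at the study's fold minimum of 0.25. Of all genes, 2770 of 13231, 2593 of 13493 and 6283 of 13410 were called in these settings, in the same order. The count in chicken mature minus committed cells, 3, was 5 at the fold minimum of 0.25, where 5253 of 13410 genes were called. With each such sum left out in turn, the counts ran from 1 to 3 in cycling minus OPC-like, 5 to 7 in committed minus OPC-like, 6 to 8 in later lineage minus OPC-like, 3 to 4 in mature minus committed, 10 to 11 in OPC-like minus astrocyte-like and 12 to 13 in neuron-like minus astrocyte-like cells of chicken. In fugu they ran from 8 to 9 in mature minus astrocyte-like, 7 to 8 in committed minus mature, 7 to 8 in each panel cluster comparison and 11 to 12 in neuron-like minus astrocyte-like cells. The library as a block took the call of SOX1 in chicken cycling cells (log2 -1.43, adjusted p = 0.0538), added SOX14 there (-2.19, 0.0444) and in mature minus committed cells (0.0475), added SOX8 in neuron-like cells (-1.06, 0.0101), and changed no other call of a member. RLE size factors moved the median of all genes by -0.36 in fugu mature minus astrocyte-like, 0.45 in panel cluster minus mature, 0.21 in committed minus mature and 0.17 in neuron-like minus astrocyte-like cells, and by -0.12 and -0.11 in chicken later and committed minus OPC-like cells. Under RLE the sign turned for SOX10 in panel cluster minus mature and sox9b in mature minus astrocyte-like cells, neither of them called with TMM. Calls of members with few UMIs, such as fugu SOX9 (65 in all kept cells) and chicken SOX14 (306), changed when 1 sum was left out. So did calls of members with more UMIs, among them chicken SOX21 (42719), chicken SOX10 (43079) and fugu sox19b (5214).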
